A study of Mus musculus with 24 samples.

Results

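The complement components and receptors described here were the genes C1qa, C1qb, C1qc, C3, C3ar1, C5ar1, Cfb, Cfp and C4b, chosen by symbol. Earlier results of these data were known when they were chosen, so their counts beside those of all probe sets are description only. Of these 9 listed genes, 7 had probe sets of their own in the annotation used, 13 probe sets in all, among 18193 named genes and 45037 probe sets that were not array controls. All 13 passed a filter on low values, which asked for a ratio at or above the array median on at least 3 arrays. As each ratio is relative to the probe set's own usual level, passing does not show that a gene was expressed. C3 has no probe set in that annotation and was not analysed here. C4b is represented only by a probe set that it shares with C4a, whose values belong to neither gene alone, so it was kept out of the counts.

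The measurements came from bone marrow-derived macrophages of C57Bl/6 mice, grown for 10 days with 20 ng/ml M-CSF and hybridized to Affymetrix Mouse430_2 arrays. The Pparg+/- LysCre genotype is that of mice 1, 2 and 3, and the Pparg fl/- LysCre genotype that of mice 4, 5 and 6. Every animal carried 1 null Pparg allele and Cre under the lysozyme gene of myeloid cells, and the genotypes differed in whether the remaining allele was intact or flanked by loxP sites. Each mouse gave 1 culture to each of 4 conditions: vehicle (DMSO:ethanol), the PPARγ agonist rosiglitazone (RSG, 1 µM), IL-4 (20 ng/ml) with vehicle, and IL-4 with RSG. This makes 8 groups of 3 arrays. The cultures are bulk samples, so fewer cells of a type and less RNA per cell cannot be told apart. Cre acts only in cells that use the lysozyme gene, and cells that escape it keep the floxed allele. Precision is limited by the 3 arrays in each group.

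Complement is a set of plasma proteins that tag particles for uptake and lyse membranes. C1q, built from the A, B and C chains, recognizes antibody complexes and dying cells and starts the classical pathway. Properdin and factor B serve the alternative pathway, and all routes meet at C3, whose cleavage and that of C5 release the small peptides C3a and C5a. Macrophages are a main source of C1q and properdin, and they sense C3a and C5a through the G protein-coupled receptors encoded by C3ar1 and C5ar1.

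In the RefSeq gene table C1qb, C1qc and C1qa are direct neighbors on chromosome 4, and Cfp lies on the X chromosome. Promoter windows of 300 bases, reaching from 250 before to 50 after the annotated start, were given for 6 of the 9 listed genes (RefSeq, build GRCm38.p6). They were searched on both strands for GAGGAA, the core bound by the myeloid factor PU.1. It was found in the windows of C1qb, C1qc and Cfp and not in those of C3ar1, C5ar1 and C3, while 28.3% of all 32851 windows held it. These 3 windows are shown, cut at 30 bases after the start, because they hold that core; capitals mark GAGGAA or its reverse complement TTCCTC. They lie on the minus strand at chr4:136886171-136886450 (C1qb), chr4:136892885-136893164 (C1qc) and chrX:20931526-20931805 (Cfp).
C1qb: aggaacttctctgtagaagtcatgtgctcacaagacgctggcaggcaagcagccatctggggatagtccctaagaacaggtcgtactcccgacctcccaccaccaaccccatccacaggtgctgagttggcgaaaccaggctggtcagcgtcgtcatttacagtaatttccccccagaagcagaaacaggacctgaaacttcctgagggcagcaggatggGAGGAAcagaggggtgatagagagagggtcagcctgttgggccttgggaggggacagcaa
C1qc: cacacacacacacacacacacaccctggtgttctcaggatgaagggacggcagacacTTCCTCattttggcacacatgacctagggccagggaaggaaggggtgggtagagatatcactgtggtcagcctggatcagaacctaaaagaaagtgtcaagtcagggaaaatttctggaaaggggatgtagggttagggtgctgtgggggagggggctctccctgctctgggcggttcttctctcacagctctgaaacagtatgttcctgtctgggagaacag
Cfp: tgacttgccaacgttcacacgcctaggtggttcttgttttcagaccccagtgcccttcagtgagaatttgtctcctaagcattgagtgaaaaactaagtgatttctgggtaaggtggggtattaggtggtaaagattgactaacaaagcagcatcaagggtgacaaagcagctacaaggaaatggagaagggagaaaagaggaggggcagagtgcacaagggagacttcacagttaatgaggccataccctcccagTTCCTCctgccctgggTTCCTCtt
The match began 30 bases before the start in C1qb (position -30) and at position -193 in C1qc, and the pair in Cfp lay 6 and 22 bases after the start. The spacings TTC, any 4 bases, GAA (preferred by STAT6), TTC, any 3 bases, GAA (other STATs) and GAAA, any 2 bases, GAAA (interferon response) occurred in 6.95%, 8.3% and 3.44% of all windows and in none of the 6 member windows, which says only that these letters are not in them.

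Values are ratios: signals scaled to each array's 50th percentile and then to the median of the probe set over the arrays, so 1 is about the usual level of that probe set. Ratios can be compared between arrays but not between genes. Changes are log2 differences between group means with their standard errors (SE), and p-values are from limma, Benjamini-Hochberg adjusted over 43349 probe sets. Unless a block is named, the fit did not pair the cultures of a mouse. A probe set was called when the adjusted p was under 0.05 and the change at least 1.5-fold. In the IL-4 comparisons the median log2 change of all probe sets was 0.10 to 0.12, and centring the arrays on their medians brought it to between 0.00 and 0.04.

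Several facts about the arrays bear on the results. Retnla, an alternative activation gene, sat at 0.01, the lowest ratio in the data, on all 12 arrays without IL-4 and was higher by 8.00 to 8.22 on the log2 scale with IL-4. The Pparg probe set gave no lower ratio in the groups labelled Pparg fl/- than in those labelled Pparg+/-, and with IL-4 and RSG it was higher by 1.29 (adjusted p = 0.032). Whether its probes lie in the deleted part is not given in the sources used here, so it does not check the genotype. For Pparg fl/- LysCre macrophages the paper itself reports near complete recombination by PCR, and that RSG no longer induced Fabp4. Lyz2, the gene that carries LysCre, had ratios of 16.6 to 21.6 on the 8 arrays of mice 2 and 4 and of 0.296 to 1.15 on the other 16. Mice 2 and 4 belong to different genotypes and are left out together where stated. On the Pparg+/- vehicle array of mouse 1 without IL-4 the summed ratio of 22 interferon-stimulated genes was 146, against 23.2 to 41.9 on the other arrays without IL-4.

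With IL-4, all C1q probe sets and both C5ar1 probe sets were lower, and C3ar1 and 1 of the Cfp probe sets were higher. Of the 13 probe sets, 8 were called in Pparg+/- cells with vehicle, 1 higher and 7 lower, where 13.4% of all probe sets were called (7.91% higher, 5.47% lower). The count was 5 in Pparg fl/- cells with vehicle, 2 higher and 3 lower, where 14.8% of all were called (8.21% higher, 6.60% lower). With RSG it was 6 in Pparg+/- cells, all lower, where 11.6% were called (6.57% higher, 5.07% lower). It was 8 in Pparg fl/- cells with RSG, 1 higher and 7 lower, where 13.3% were called (7.30% higher, 6.03% lower). The median log2 change of the 13 was -0.82, -0.56, -0.86 and -0.61 in the same order, beside 0.10, 0.12, 0.11 and 0.11 for all probe sets. In each of these 27 calls the arrays with and without IL-4 did not overlap, as in 96.5% to 98.8% of all calls in the 4 comparisons. The 4 comparisons do not share arrays. The count in Pparg fl/- cells with vehicle was 8 with mouse as a block and also 8 after centring the arrays, with 1 probe set higher after centring. Without mice 2 and 4, which leaves 2 arrays a group, the counts were 5, 3, 4 and 4.

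**Figure D1:**
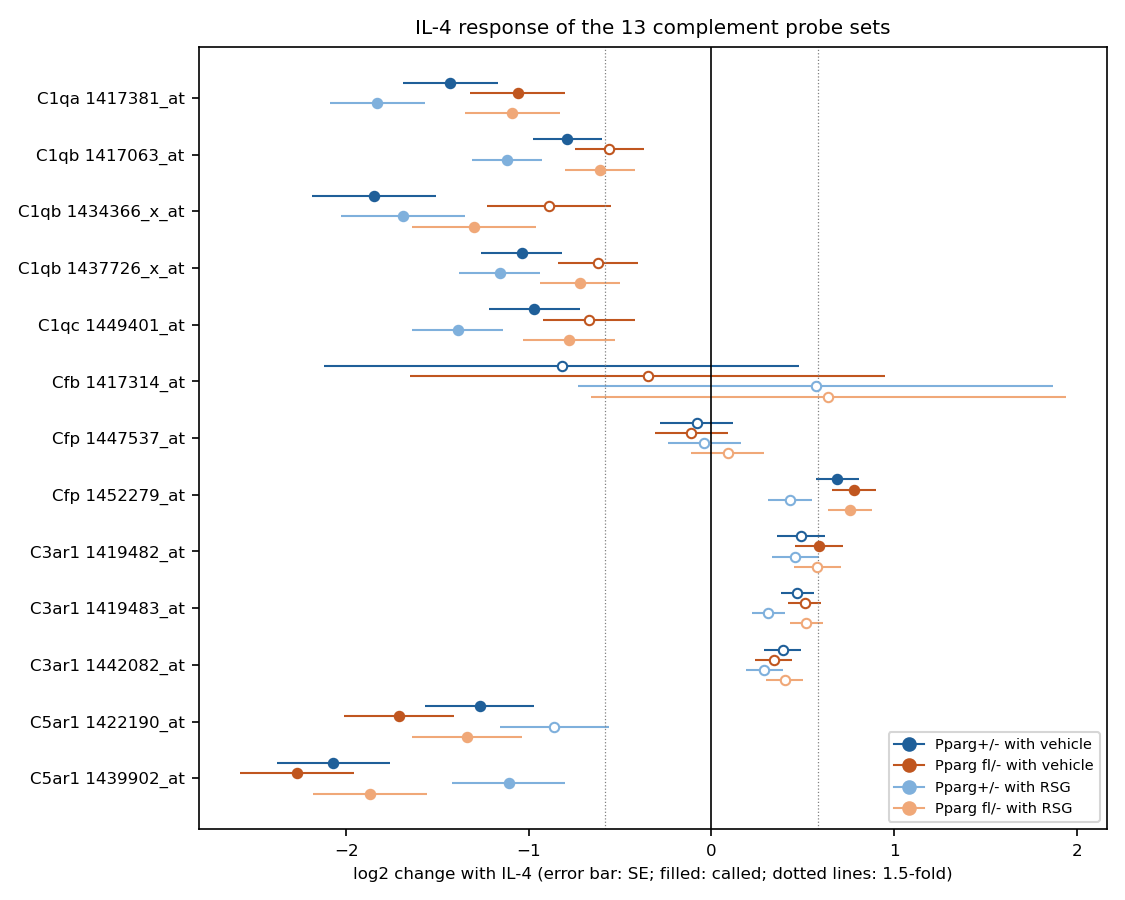
Log2 change with IL-4 (horizontal axis) of the 13 probe sets in the 4 genotype and treatment settings, with SE bars from the fit; filled points were called and dotted lines mark 1.5-fold. The C1q and C5ar1 probe sets lie to the left of 0 in all 4 settings, C3ar1 and the Cfp probe set 1452279_at lie to the right, and Cfb has wide bars on both sides of 0.

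C1qa, the gene of the A chain, had ratios of 1.72, 1.65 and 1.47 in Pparg+/- cells with vehicle (mice 1, 2 and 3) and of 0.893, 0.454 and 0.525 with IL-4. The Pparg fl/- ratios were 1.41, 1.48 and 1.47 (mice 4, 5 and 6) against 0.502, 0.854 and 0.796. With RSG they were 1.24, 1.39 and 1.24 against 0.495, 0.336 and 0.287 in Pparg+/- cells, and 1.11, 1.53 and 1.62 against 0.535, 0.726 and 0.732 in Pparg fl/- cells. Every array with IL-4 was below every array without it. C1qa fell by 1.43 ± 0.26 (SE) on the log2 scale in Pparg+/- cells with vehicle, a 2.69-fold drop (adjusted p = 0.0006), and by 1.06 ± 0.26 in Pparg fl/- cells (adjusted p = 0.0066). With RSG it fell by 1.83 ± 0.26 in Pparg+/- cells (adjusted p = 6.5e-05) and by 1.09 ± 0.26 in Pparg fl/- cells (adjusted p = 0.0058). The call in Pparg fl/- cells with vehicle was lost without mice 2 and 4 (change -0.84, adjusted p = 0.063), and the one with RSG without mouse 5 (adjusted p = 0.059) or mouse 6 (adjusted p = 0.065). With the t-test of the study's methods in place of limma, the C1qa call was kept only in Pparg+/- cells with RSG. The adjusted p in Pparg+/- cells with vehicle was then 0.068.

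C1qc, the gene of the C chain, had ratios of 1.38, 1.13 and 1.28 in Pparg+/- cells with vehicle against 0.982, 0.502 and 0.538 with IL-4. Those of Pparg fl/- cells were 1.18, 1.23 and 1.19 against 0.652, 0.787 and 0.841. These groups did not overlap either, although mouse 1 with IL-4 came close to the lowest vehicle array. C1qc fell by 0.97 ± 0.25 in Pparg+/- cells (adjusted p = 0.011), by 1.39 ± 0.25 with RSG (adjusted p = 0.00076) and by 0.78 ± 0.25 in Pparg fl/- cells with RSG (adjusted p = 0.041). Its change of -0.67 ± 0.25 in Pparg fl/- cells with vehicle was not called (adjusted p = 0.074; 0.032 with mouse as a block). The C1qc call in Pparg+/- cells with vehicle was lost without mouse 2 or mouse 3 (adjusted p = 0.098 and 0.12). In Pparg fl/- cells with RSG, where the adjusted p was near the threshold, leaving out any mouse but mouse 1 ended the call (adjusted p = 0.052 to 0.23), and so did leaving out the mouse 1 array that stood out in interferon-stimulated genes (0.053).

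C1qb, the gene of the B chain, had 3 probe sets, which moved the same way to different extents. In Pparg+/- cells with vehicle 1417063_at read 1.33, 1.20 and 1.15 without IL-4 and 0.939, 0.621 and 0.611 with it, a fall by 0.79 ± 0.19 (adjusted p = 0.0064). The probe set 1434366_x_at read 2.07, 1.82 and 1.79 against 0.812, 0.42 and 0.422, a fall by 1.85 ± 0.34 (adjusted p = 0.00069), and 1437726_x_at fell by 1.04 ± 0.22 (adjusted p = 0.0019). Both of these carry the suffix that marks probe sets able to bind other transcripts. With RSG all 3 were called in both genotypes, with falls from 1.12 to 1.69 in Pparg+/- cells and from 0.61 to 1.30 in Pparg fl/- cells. In Pparg fl/- cells with vehicle none of the 3 met both criteria: 1417063_at read 1.16, 1.16 and 1.17 against 0.661, 0.833 and 0.888, a 1.47-fold difference with an adjusted p of 0.047, and the others had changes of -0.89 ± 0.34 (adjusted p = 0.079) and -0.62 ± 0.22 (adjusted p = 0.053). With mouse as a block these 2 were called (adjusted p = 0.031 and 0.016). In Pparg fl/- cells with RSG none of the 3 was called without mouse 4 (adjusted p = 0.066 to 0.091), without mouse 6 (0.15 to 0.19) or without mice 2 and 4 (0.11 to 0.14), and without mouse 5 only 1434366_x_at was called. The 1417063_at call in Pparg+/- cells with vehicle was lost without mouse 2 or mouse 3 (adjusted p = 0.094 and 0.069).

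**Figure D2:**
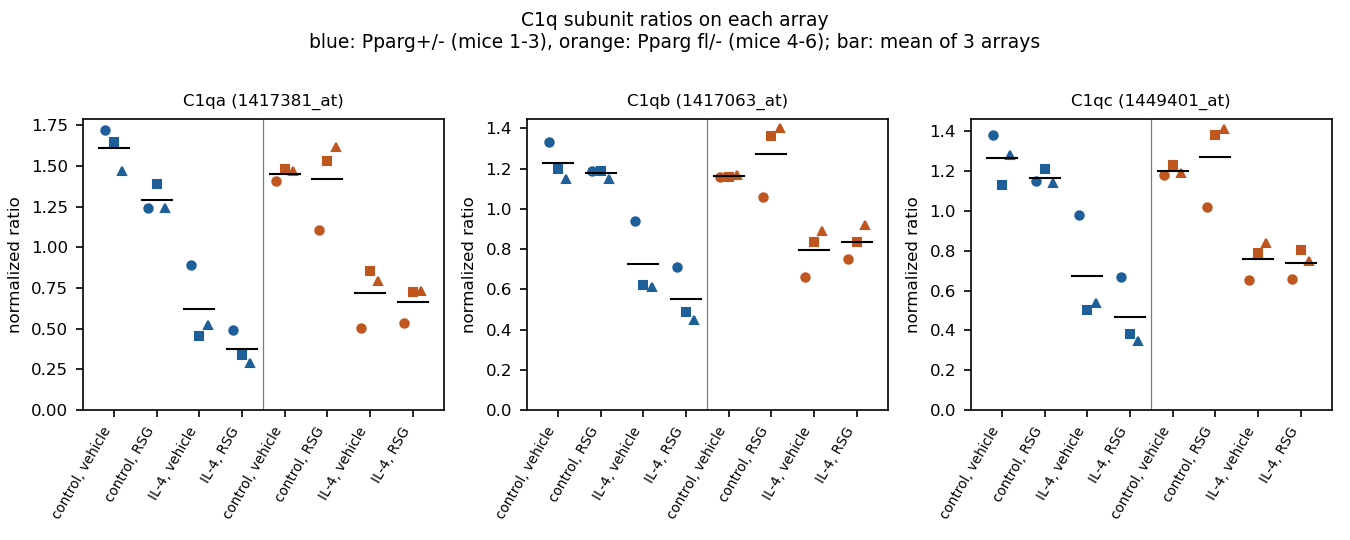
Normalized ratio (vertical axis, linear) of C1qa, C1qb (1417063_at) and C1qc on each of the 24 arrays, by group; blue marks Pparg+/- and orange Pparg fl/- cells, circles mice 1 and 4, squares mice 2 and 5, triangles mice 3 and 6, and bars are means of 3 arrays. In all 3 panels every array with IL-4 is below every array without it in the same genotype and treatment, and in Pparg+/- cells with IL-4 mouse 1 is the highest of its group.

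The fall was seen in each animal. Over the 5 C1q probe sets, 6 mice and both treatments, all 60 changes within a mouse were negative, from -2.12 to -0.25 on the log2 scale. These probe sets vary together, so the 60 are not separate observations. How many of all probe sets moved 1 way in every mouse was not counted, here or for the genes below. Over the 24 arrays the log2 ratios of C1qa correlated with those of C1qb at r = 0.98 and of C1qc at r = 0.98, and C1qb with C1qc at r = 0.99; these points share arrays and the IL-4 difference. Within groups, after the group means were taken off, r among the 5 C1q probe sets was 0.78 to 0.95. Apart from each other, the named gene most like C1qa was Smagp (r = 0.97).

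C5ar1, which encodes the receptor of the chemoattractant C5a, had, by the probe set 1439902_at, the largest drop of the 13 in both vehicle comparisons and in Pparg fl/- cells with RSG. All 5 C1q probe sets dropped more in Pparg+/- cells with RSG. Its ratios were 1.28, 1.25 and 1.43 in Pparg+/- cells with vehicle and 0.468, 0.215 and 0.307 with IL-4. They were 1.62, 1.39 and 1.51 in Pparg fl/- cells against 0.239, 0.374 and 0.338. The groups were far apart in both genotypes. The probe set fell by 2.07 ± 0.31 (4.20-fold, adjusted p = 8.1e-05) and by 2.27 ± 0.31 (4.83-fold, adjusted p = 2.6e-05). With RSG it fell by 1.11 ± 0.31 in Pparg+/- cells (adjusted p = 0.018) and by 1.87 ± 0.31 in Pparg fl/- cells (adjusted p = 0.00023). The Pparg+/- call with RSG was lost without mouse 2 (adjusted p = 0.079), mouse 3 (adjusted p = 0.21), or mice 2 and 4 together (adjusted p = 0.066).

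The other C5ar1 probe set, 1422190_at, gave the same direction with more spread among vehicle arrays: 1.08, 0.751 and 1.67 in Pparg+/- cells against 0.641, 0.24 and 0.626 with IL-4, and 2.33, 2.09 and 2.14 in Pparg fl/- cells against 0.623, 0.832 and 0.571. It fell by 1.27 ± 0.30 (adjusted p = 0.0052), by 1.71 ± 0.30 (adjusted p = 0.00037) and, in Pparg fl/- cells with RSG, by 1.34 ± 0.30 (adjusted p = 0.0036; 0.053 without mouse 5). In Pparg+/- cells with RSG its change of -0.86 ± 0.30 was not called (adjusted p = 0.064; 0.024 with mouse as a block). All 24 changes within a mouse over both probe sets were negative, from -2.76 to -0.50. The named gene most like C5ar1 was Cd93 (r = 0.97 over 24 arrays).

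C3ar1, the gene of the C3a receptor, moved the other way by less. The probe set 1419483_at, the least variable of its 3, read 0.918, 0.828 and 0.84 in Pparg+/- cells with vehicle and 1.26, 1.11 and 1.20 with IL-4, and 0.898, 0.905 and 0.858 against 1.17, 1.19 and 1.44 in Pparg fl/- cells. All arrays with IL-4 were above those without. The difference was 0.47 ± 0.09 (1.38-fold, adjusted p = 0.0014) and 0.51 ± 0.09 (1.42-fold, adjusted p = 0.00063), past the p threshold and short of 1.5-fold. Only 1419482_at reached 1.5-fold, in Pparg fl/- cells with vehicle (0.795, 0.828 and 0.812 against 1.24, 1.12 and 1.31; change 0.59 ± 0.13, 1.51-fold, adjusted p = 0.0022), and leaving out mouse 4 or mouse 6 moved it to 0.56 and 0.54, under 1.5-fold, as did centring the arrays (0.51). Over the 3 probe sets all 36 changes within a mouse were positive, from 0.20 to 0.85. Averaged over genotypes and treatments with mouse as a random block, a comparison added later in which 18.8% of all probe sets were called, the 3 probe sets were higher by 0.53, 0.45 and 0.35 (adjusted p = 9.2e-07, 1.3e-07 and 7.4e-06), none past 1.5-fold.

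Cfp encodes properdin, which stabilizes the alternative pathway convertase. Its probe sets disagreed. With vehicle, 1452279_at read 0.831, 0.714 and 0.79 in Pparg+/- cells against 1.40, 1.22 and 1.15 with IL-4, and 0.837, 0.849 and 0.869 in Pparg fl/- cells against 1.43, 1.40 and 1.55. The groups did not overlap. It rose by 0.69 ± 0.12 (1.61-fold, adjusted p = 0.00042) and by 0.78 ± 0.12 (1.72-fold, adjusted p = 0.0001), and by 0.76 ± 0.12 in Pparg fl/- cells with RSG (adjusted p = 0.00015). In Pparg+/- cells with RSG, where the ratios were 0.763, 0.763 and 0.801 against 1.18, 0.959 and 1.00, the difference of 0.43 ± 0.12 was 1.34-fold (adjusted p = 0.02) and was not called. All 12 changes within a mouse were positive. The other probe set, 1447537_at, stayed between 0.706 and 1.28 on all 24 arrays, with changes from -0.11 to 0.09 and intervals within -0.54 and 0.52. The named genes most like Cfp were Lrpap1 and C3ar1 (r = 0.97 each).

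Cfb encodes factor B, which carries the protease of the alternative pathway convertase. Its ratios ran from 0.199 to 6.94, and its spread within groups (SD 1.71 on the log2 scale) was above that of 98.3% of probe sets. In Pparg+/- cells with vehicle it read 6.94, 0.385 and 0.463 without IL-4 and 0.326, 0.632 and 1.10 with it. High values were scattered over groups: 3.66 in 1 Pparg+/- RSG culture, 3.08 and 5.02 in Pparg+/- cells with IL-4 and RSG, 3.70 in 1 Pparg fl/- vehicle culture. Mouse 1, the highest, was the array with a summed interferon-stimulated ratio of 146; the arrays at 3.08 and 5.02 had sums of 16.2 and 15.2. The part of these genes in the Cfb values was not tested. No comparison called Cfb, and the 95% interval of its change with IL-4 in Pparg+/- cells with vehicle, -3.55 to 1.91, holds large changes both ways.

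The probe set shared by C4a and C4b read 0.999, 1.27 and 1.00 in Pparg+/- cells with vehicle and 1.28, 1.07 and 1.01 with IL-4, and 0.593, 0.551 and 2.94 against 1.58, 1.23 and 1.18 in Pparg fl/- cells. These groups overlapped in both genotypes. With RSG they did not: the ratios were 0.874, 0.667 and 0.859 against 0.97, 0.90 and 1.36 in Pparg+/- cells, and 0.553, 0.656 and 0.820 against 0.986, 1.36 and 1.01 in Pparg fl/- cells. Its changes with IL-4 were 0.04 and 0.42 with vehicle and 0.41 and 0.73 with RSG (SE 0.41 each), none of them called, with adjusted p-values of 0.27 to 0.97.

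**Figure D3:**
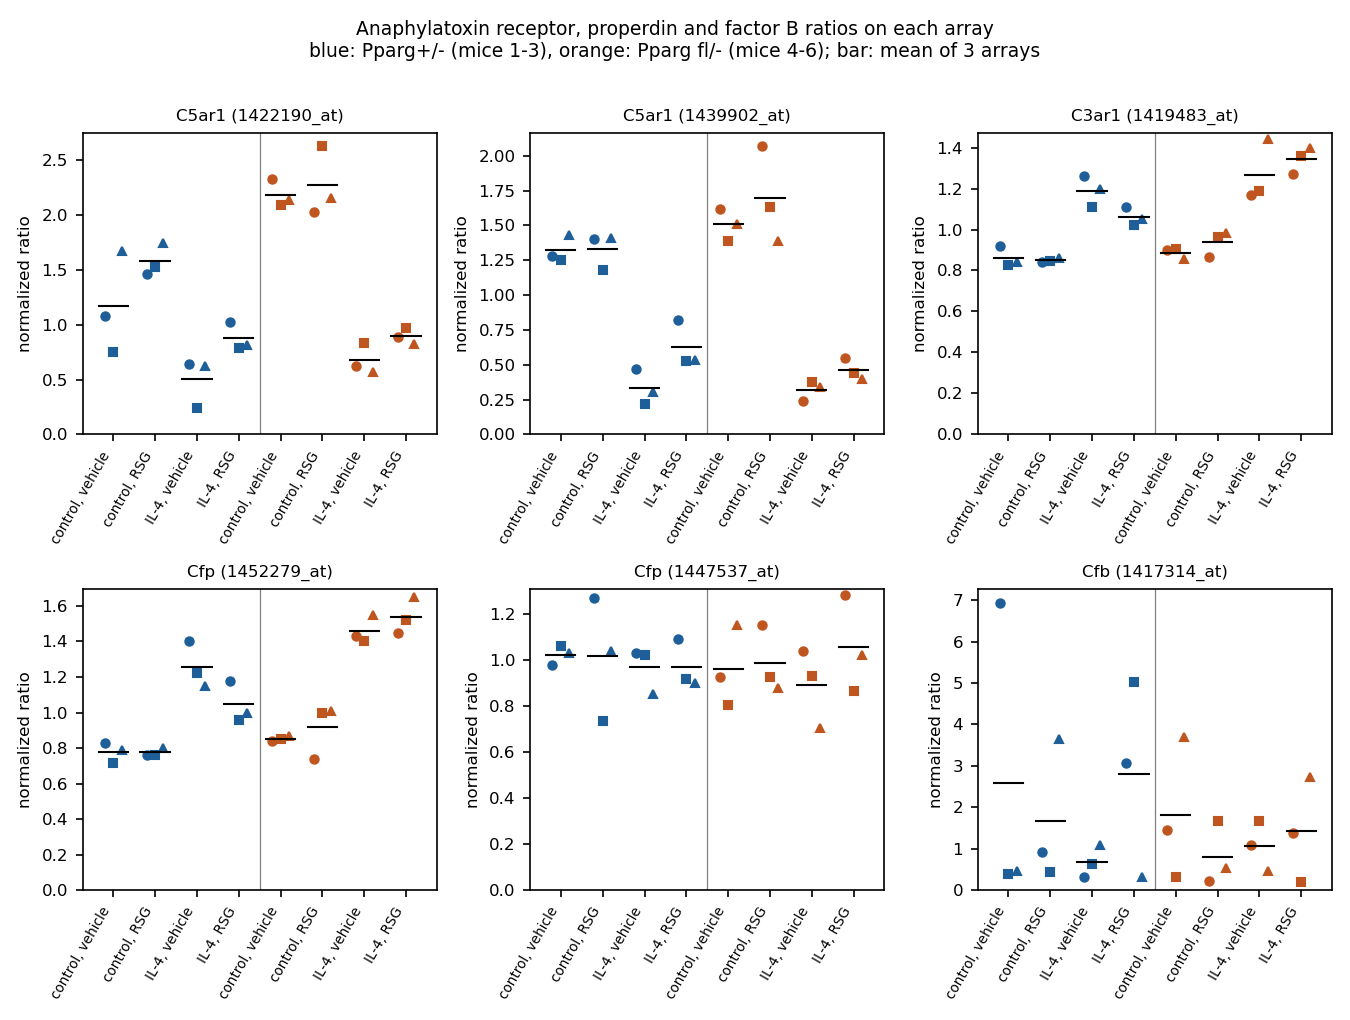
Normalized ratio (vertical axis, linear, own scale for each panel) of the C5ar1, C3ar1, Cfp and Cfb probe sets on each array, by group; colors, symbols and bars as for the C1q plot. Both C5ar1 panels drop with IL-4, C3ar1 and Cfp 1452279_at rise, Cfp 1447537_at is level, and Cfb ranges from 0.199 to 6.94 with overlap between all groups compared.

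Markers of other cells and states moved with IL-4 too. The summed ratio of 9 neutrophil genes was 13.6 to 28.8 on the arrays without IL-4 and 1.47 to 4.04 on those with it, that of 11 cell cycle genes 19.2 to 70.7 against 1.37 to 2.25, and that of 10 stromal genes 12.4 to 45.4 against 6.01 to 8.97. Of the neutrophil genes 6 or 7 were called lower in each IL-4 comparison, S100a9 being at the lowest ratio on 8 arrays and Lcn2 on 5; all 11 cell cycle genes were called lower, and 3 of the 10 stromal genes. Of 22 interferon-stimulated genes (sums 23.2 to 146 against 14.9 to 22.1) 6 to 13 were called lower, and Usp18 higher in all 4. The summed ratio of dendritic cell markers (7 genes) went the other way, from 4.34 to 8.76 without IL-4 to 7.51 to 16.1 with it. Zbtb46 and Batf3 were called higher in all 4 comparisons. With vehicle, Flt3 was called higher in Pparg fl/- cells and Siglech lower in Pparg+/- cells. The median log2 change of the 7 was 0.06 and 1.32 in Pparg+/- and Pparg fl/- cells with vehicle, and 0.63 and 0.21 with RSG. The sums of T and NK cell markers (8 genes) were 3.5 to 10.5 against 6.52 to 18.2, with Gzma alone called, higher in all 4. Those of mast cell and basophil markers (8 genes) were 4.79 to 9.06 against 7.29 to 16.7. In some of the comparisons Cpa3, Gata2 and Ms4a2 were called higher and Kit lower. The sums of B cell markers (7 genes) were 5.93 to 10.8 against 3.94 to 7.90, with Cd79b and Ms4a1 called lower in some comparisons. Among 10 macrophage markers (11.7 to 38.0 against 7.21 to 28.9) Fcgr1, Cx3cr1 and Cd14 were called lower in each of the 4 comparisons and Mertk in both with vehicle, Itgam was called higher in 3, and Csf1r, Adgre1 and Cd68 were not called in any. The macrophage sums include Lyz2, which read 16.6 to 21.6 on the arrays of mice 2 and 4. On the arrays of the other mice the sums were 11.7 to 28.9 without IL-4 and 7.21 to 10.3 with it. C1q, C5ar1, C3ar1 and Cfp are genes of macrophages, and neutrophils use some of them too, among them C5ar1. The part of these markers in the changes above was not tested.

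Of 49 other complement genes listed by role, 42 had a tested probe set. With IL-4, 4 were called higher and 5 lower in Pparg+/- cells with vehicle, 4 and 4 in Pparg fl/- cells with vehicle, 5 and 3 in Pparg+/- cells with RSG, and 3 and 5 in Pparg fl/- cells with RSG. Counted the same way, by 1 probe set a gene, 9.34% of all genes were called higher and 7.23% lower in the first comparison, 9.75% and 8.24% in the second, 7.71% and 6.78% in the third and 8.72% and 7.65% in the fourth. The median log2 change of the 42 was 0.12, 0.08, 0.14 and 0.09.

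Among the recognition molecules and proteases of the classical and lectin pathways, Fcna, which encodes the lectin ficolin A, fell in all 4 comparisons, with changes of -1.96, -1.67, -2.14 and -1.80 (SE 0.26; adjusted p = 1.2e-05 to 0.00011). Fcnb, the gene of ficolin B, fell by 2.10 ± 0.41 in Pparg+/- cells with vehicle and was not called elsewhere, with changes of -0.71, 0.10 and -0.82. Ptx3, a pentraxin that binds C1q, fell by 2.35 ± 0.73 in Pparg fl/- cells with vehicle, and Colec12, a scavenger collectin, rose by 0.72 ± 0.22 in Pparg+/- cells with RSG. In the terminal and alternative pathway group C8a alone was called, higher by 1.39 ± 0.43 in Pparg+/- cells with RSG.

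Among the inhibitors, Serping1, which encodes the C1 inhibitor, fell with changes of -1.37, -1.76 and -1.82 (SE 0.38) in Pparg+/- cells with vehicle and in Pparg fl/- cells with vehicle and with RSG, and its change of -0.89 in Pparg+/- cells with RSG was not called. Cfi, the protease that inactivates C3b, rose by 0.92 ± 0.28 in Pparg fl/- cells with vehicle. Clu rose by 0.96 ± 0.25 in Pparg+/- cells with RSG and Csmd1 fell by 3.66 ± 1.00 in Pparg fl/- cells with RSG; the probe sets of Clu disagreed, and another of them was called lower in Pparg fl/- cells with vehicle (-2.76, adjusted p = 0.023).

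The receptors divided. The C3b fragment receptors CR3 and CR4 are pairs of Itgb2 with Itgam or Itgax, and their genes were higher: Itgax by 2.67, 2.61, 2.44 and 2.65 (SE 0.30), Itgb2 by 0.80, 0.67, 0.66 and 0.63 (SE 0.14), and Itgam by 1.11, 1.18 and 0.77 where called and by 0.44 (1.35-fold) in Pparg+/- cells with RSG. Vsig4, a C3b receptor of tissue macrophages, fell with changes of -4.46, -3.62 and -3.90 (SE 0.92) in Pparg+/- cells with vehicle and in both genotypes with RSG, and in Pparg fl/- cells with vehicle its change of -2.57 was not called (adjusted p = 0.059). Cd93, once described as a C1q receptor, fell with changes of -1.62, -1.85, -1.25 and -1.74 (SE 0.21). C1qbp, a C1q-binding protein found mostly in mitochondria, rose by 0.59 ± 0.13 in Pparg+/- cells with vehicle.

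**Figure D4:**
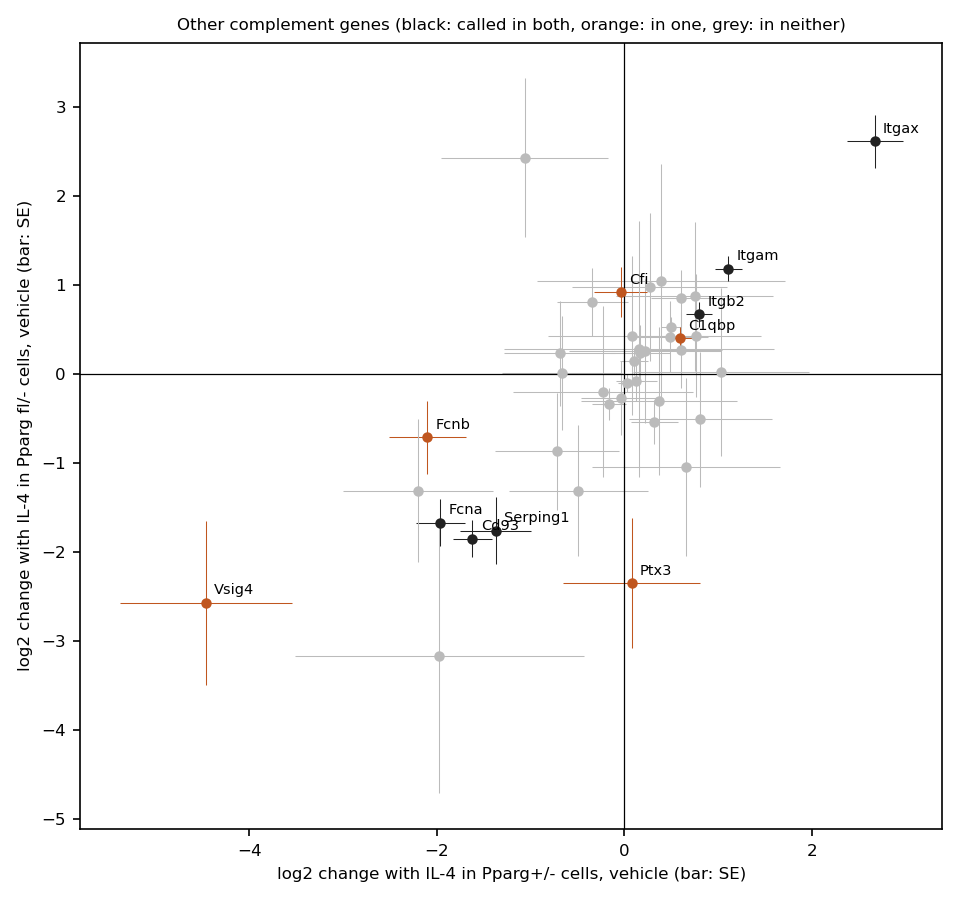
Log2 change with IL-4 in Pparg+/- cells (horizontal axis) and in Pparg fl/- cells (vertical axis), both with vehicle, for the 42 other complement genes, with SE bars; named genes were called in at least 1 of the 2. Itgax, Itgam and Itgb2 lie at the upper right, and Fcna, Cd93 and Serping1 at the lower left.

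The study asked whether RSG acts on macrophages more strongly in the presence of IL-4, with arrays of human cells and of wild-type and Stat6-/- mouse cells. The Pparg+/- and Pparg fl/- arrays used here were made to ask what PPARγ contributes to IL-4 responses. No member was called for RSG in any of the 4 settings, where 0.0115%, 0%, 0.173% and 0.00923% of all probe sets were called (Pparg+/- and Pparg fl/- cells without IL-4, then with IL-4). At an unadjusted p under 0.05 there were 0, 0, 4 and 0 of the 13, beside 5.27%, 4.25%, 7.29% and 4.86% of all probe sets. The 4, all in Pparg+/- cells with IL-4, were C1qa, Cfp 1452279_at and both C5ar1 probe sets. None of the 42 other complement genes was called for RSG or between the genotypes.

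In Pparg+/- cells with IL-4, C1qa read 0.893, 0.454 and 0.525 with vehicle and 0.495, 0.336 and 0.287 with RSG. Every mouse was lower with RSG, and the groups overlapped, the RSG value of mouse 1 lying above the vehicle value of mouse 2. The change was -0.72 ± 0.26 (95% interval -1.26 to -0.17, adjusted p = 0.47). All 5 C1q probe sets were lower with RSG in all 3 of these mice, with mean changes from -0.72 to -0.27. They vary together and are not separate evidence, and how many of all probe sets were lower in all 3 mice was not counted. The 5 mean changes in Pparg fl/- cells with IL-4 lay between -0.17 and 0.08, C1qa reading 0.502, 0.854 and 0.796 against 0.535, 0.726 and 0.732. The difference between the genotypes in the C1qa response, 0.63 ± 0.37 (interval -0.14 to 1.40, adjusted p = 1), did not pass the test. Its SE and interval come from the fit that did not pair the cultures of a mouse. The C1qa changes within a mouse were -0.85, -0.43 and -0.87 in Pparg+/- cells and 0.09, -0.23 and -0.12 in Pparg fl/- cells.

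C5ar1 1439902_at read 0.468, 0.215 and 0.307 with IL-4 and vehicle and 0.818, 0.524 and 0.537 with IL-4 and RSG in Pparg+/- cells, without overlap, a change of 0.97 ± 0.31 (interval 0.32 to 1.61, adjusted p = 0.35). The Pparg fl/- cells read 0.239, 0.374 and 0.338 against 0.55, 0.439 and 0.399, a change of 0.56 ± 0.31 (interval -0.09 to 1.20, adjusted p = 1). Both C5ar1 probe sets were higher with RSG in all 6 mice given IL-4, although neither passed the test, also when averaged over genotypes (0.76 ± 0.21, adjusted p = 0.21, and 0.68 ± 0.21, adjusted p = 0.28), where 0.201% of all probe sets were called. The share of all probe sets with 1 direction in all 6 mice was not counted. Without IL-4 the 1439902_at changes were 0.01 ± 0.31 and 0.15 ± 0.31. In Pparg+/- cells its RSG response was larger with IL-4 than without by 0.96 ± 0.44 (interval 0.05 to 1.87, unadjusted p = 0.04, adjusted p = 1), in a test that called none of the 13 and 0.00231% of all probe sets. The other probe set, 1422190_at, changed by 0.51 ± 0.30 with RSG without IL-4 and by 0.93 ± 0.30 with it in these cells, a difference of 0.42 ± 0.43 (interval -0.48 to 1.31, adjusted p = 1).

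**Figure D5:**
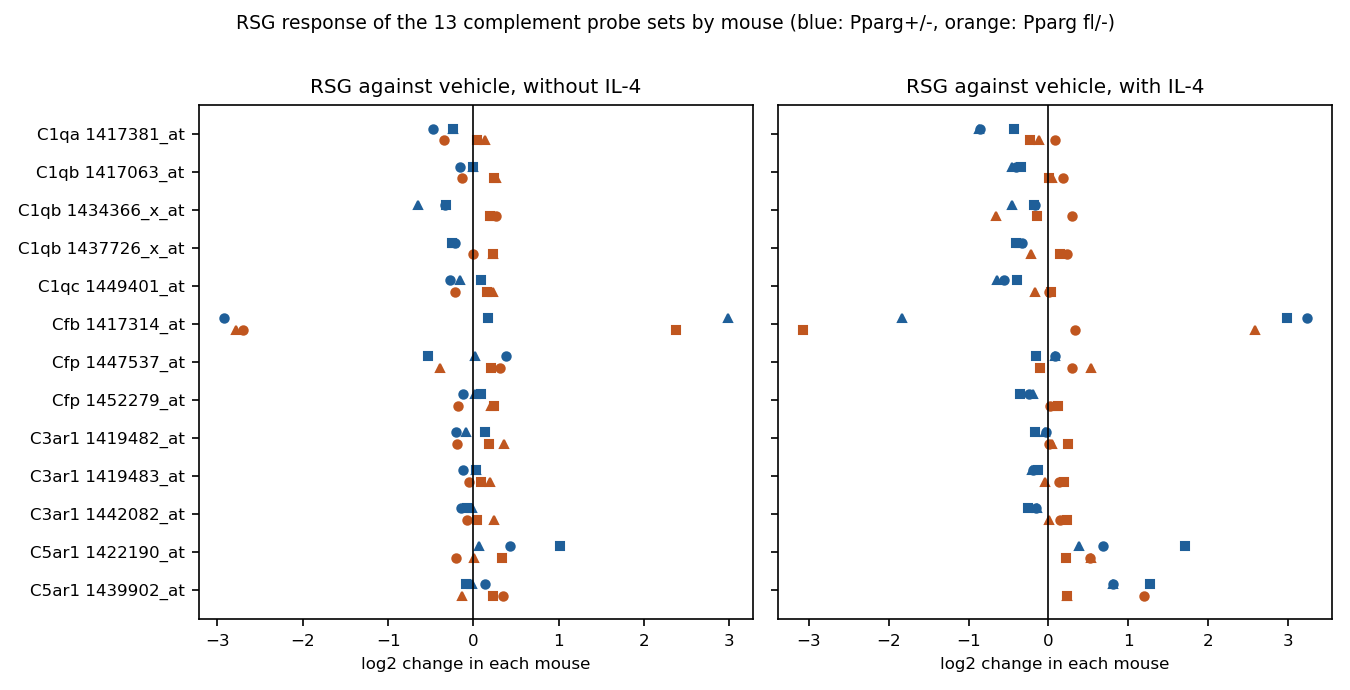
Log2 change with RSG against vehicle within each mouse (horizontal axis) for the 13 probe sets, without IL-4 on the left and with IL-4 on the right; blue marks Pparg+/- and orange Pparg fl/- mice, symbols as for the C1q plot. With IL-4 the C1q points of the 3 Pparg+/- mice lie left of 0 and the C5ar1 points of all 6 mice right of 0, while Cfb spreads from -3.07 to 3.24.

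No member was called between the genotypes, in comparisons where 0%, 0.00461%, 0.00231% and 0.501% of all probe sets were called (without IL-4 with vehicle and with RSG, then with IL-4 with vehicle and with RSG). At an unadjusted p under 0.05 there were 1, 0, 0 and 8 of the 13, beside 9.11%, 9.29%, 9.14% and 11.4% of all probe sets. Probe sets of 1 gene, and the C1q genes among themselves, vary together and are not separate evidence. Nor are C1q, Cfp and C3ar1 separate from each other. After the group means were taken off, Cfp 1452279_at correlated with C1qa at r = 0.67, with C1qc at 0.78 and with the C3ar1 probe sets at 0.71 to 0.85. The 8, in cells given IL-4 and RSG, were C1qa, C1qc, 2 of the C1qb, 1 of the Cfp and all 3 C3ar1 probe sets, each higher in Pparg fl/- cells. Cfp 1452279_at read 1.18, 0.959 and 1.00 in Pparg+/- against 1.45, 1.52 and 1.65 in Pparg fl/- cells, without overlap: 0.56 ± 0.12, 1.47-fold, adjusted p = 0.043, short of the fold required, and past it without mouse 4. C1qa read 0.495, 0.336 and 0.287 against 0.535, 0.726 and 0.732, also without overlap, with a difference of 0.86 ± 0.26 (interval 0.31 to 1.40) and an adjusted p of 0.17. The median difference of the 13 was 0.35, beside 0.09 for all probe sets.

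Averaged over vehicle and RSG with mouse as a random block, the genotypes differed with IL-4 by 0.39 ± 0.09 in Cfp 1452279_at (1.31-fold, adjusted p = 0.029) and by 0.54 ± 0.18 in C1qa (adjusted p = 0.15), with 0.870% of all probe sets called and no member among them. Without IL-4 the averages were 0.18 ± 0.09 and -0.01 ± 0.18, with 0.0669% of all probe sets called. The difference between these averages with and without IL-4 was 0.21 ± 0.12 for Cfp (adjusted p = 0.92) and 0.56 ± 0.25 for C1qa (adjusted p = 0.87), so it did not pass the test for either, where 0.00923% of all probe sets were called. C5ar1 1422190_at was higher in Pparg fl/- cells without IL-4 and with vehicle (1.08, 0.751 and 1.67 against 2.33, 2.09 and 2.14; 0.98 ± 0.30, adjusted p = 0.39), while 1439902_at of the same gene differed by 0.19 ± 0.31.

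The IL-4 response itself was compared between the genotypes in vehicle-treated cells. No member passed that test, nor did any other probe set. For C1qa the difference of the responses was 0.37 ± 0.37 (interval -0.40 to 1.14), for C1qc 0.30 ± 0.36 (-0.45 to 1.05), for C5ar1 1439902_at -0.20 ± 0.44 (-1.11 to 0.71), for Cfp 1452279_at 0.09 ± 0.17 (-0.26 to 0.45) and for C3ar1 1419483_at 0.04 ± 0.13 (-0.24 to 0.32). Of the C1qb probe sets 1434366_x_at had the largest difference of the 5 C1q probe sets, 0.96 ± 0.49 (-0.06 to 1.98, unadjusted p = 0.063, adjusted p = 1), and the others 0.23 ± 0.27 and 0.42 ± 0.31. The intervals of C1qa, C1qc, C5ar1 and C1qb 1434366_x_at reach past 1 on the log2 scale, so these values do not show that the genotypes responded alike. At an unadjusted p under 0.05 the count was 0 of the 13, beside 4.83% of all probe sets.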

How the data were processed

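Total RNA of the cultures was labelled with biotin and hybridized to 1 array per culture. According to the methods, the authors applied GC-RMA to the CEL files in GeneSpring, divided by each array's 50th percentile and by the median of each probe set, and then by the vehicle control of each chip; per the labels GCOS was also used, with no version given. The deposited values are ratios from the first 2 divisions, since Retnla sits at 0.01 on vehicle and RSG arrays alike. From these, log2 ratios (124 values at the lowest ratio, 0.01) were fitted with limma 3.58.1 in R 4.3.3, with a mean for every group and a variance trend, on all 24 arrays. Probe sets at or above the array median on fewer than 3 arrays (1688) and the 64 controls were left out, leaving 43349. Symbols came from the platform annotation, updated through RefSeq: 34945 probe sets had 1 symbol, 932 several and 9160 none. A gene with several probe sets was represented, for pathway counts and likeness, by the one with the smallest SD within groups. The named genes were all member probe sets, up to 4 called pathway genes per role with the largest change in each IL-4 comparison, and the 3 genes most like each member. Members and lists were chosen with earlier results of these data known. Scripts were tested on simulated data. Replicate numbers name animals, so they pair cultures, and the main fit did not use this pairing. Deviations of the same mouse correlated at a median of 0.0138 (36 pairs, -0.0567 to 0.0442). Alternatives covered scaling, filter, pseudocount, test, threshold, block and left-out arrays.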

Additional observations from a re-analysis of the deposited data

Results flagged for a closer look

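In 5 cases all mice of 1 genotype changed with RSG in one direction and all mice of the other in the opposite one. With IL-4 this held for C1qb 1417063_at (Pparg+/- mice -0.45 to -0.34, Pparg fl/- mice 0.01 to 0.18; difference of the means 0.48), Cfp 1452279_at (-0.35 to -0.19 and 0.02 to 0.12; 0.34), C3ar1 1419482_at (-0.17 to -0.03 and 0.01 to 0.25; 0.18) and C3ar1 1442082_at (-0.25 to -0.14 and 0.01 to 0.24; 0.31). The test of the difference gave an adjusted p of 1 for each, with unadjusted p-values of 0.097, 0.064, 0.32 and 0.043. That test did not pair the cultures of a mouse, so its p-values do not measure the spread of the changes within a mouse. Without IL-4 it held for C1qb 1434366_x_at (-0.65 to -0.32 and 0.20 to 0.27; 0.67), where the difference was not tested. Over all 43349 probe sets the same pattern held for 2.38% with IL-4, beside 4 of the 13 here, and for 3.88% without IL-4, beside 1 of the 13. The 4 with IL-4 are not separate evidence. After the group means were taken off, r among them was 0.56 to 0.85.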

How the results depend on the processing

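The 34 single log2 changes that were called under some setting kept their direction in every setting run; of the other settings 516 left the call as it was, 73 ended it and 23 made one. The counts of the 13 probe sets called moved by over 1.5 times in these cases. For IL-4 in Pparg+/- cells with vehicle (8), the methods' t-test gave 3, a 2-fold threshold 5, a fit of only the groups compared 5 and leaving out mice 2 and 4 gave 5. For Pparg fl/- cells with vehicle (5), centring the arrays gave 8, quantile normalization 8, a 2-fold threshold 3, leaving out mice 2 and 4 gave 3 and the replicate block by mouse 8. For Pparg+/- cells with RSG (6), the t-test gave 3. For Pparg fl/- cells with RSG (8), the t-test gave 2, a 2-fold threshold 4 and leaving out mice 2 and 4 gave 4. Leaving out each mouse in turn gave 6 to 8, 4 to 7, 5 to 6 and 4 to 8 in these comparisons, 0 to 1 for the genotypes with IL-4 and RSG, and 0 in the others. The causes were not tested, beyond fewer arrays or a higher threshold. The replicate block changed no other count by as much. Centring moved the share of all calls that were higher from 59.1% to 47.8% in Pparg+/- cells with vehicle and from 56.5% to 44.2% with RSG. The methods' t-test was not run for the 3 differences of responses. Of the C1q calls for IL-4 it kept C1qa and C1qb 1417063_at in Pparg+/- cells with RSG. It also kept C1qb 1434366_x_at in Pparg+/- cells with vehicle, and it ended the other C1q calls. In Pparg+/- cells it ended the calls of C5ar1 1439902_at with RSG and of 1422190_at with vehicle. That of Cfp 1452279_at in Pparg fl/- cells with RSG ended too. Leaving out the 2 arrays that stood apart and mice 2 and 4, and the averages, were chosen after seeing the data. The ratios carry no depth; the number of arrays limits what could be detected.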
